A study of Mus musculus with 2 samples.

Results

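The 6 actin isoform genes of the mouse, Actc1, Acta1, Acta2, Actg2, Actb and Actg1, were followed in total RNA of the aged heart. They were taken by exact gene symbol from a table of 55536 annotated genes, and all 6 were found in both libraries. The RNA came from heart tissue labelled as male B6CASTF1/J, the first-generation cross of C57BL/6J and CAST/EiJ, at 18 to 20 months of age. The libraries, replicates 2 and 1, formed 1 group with no treatment, genotype contrast or other age. Each library started from 300 ng of RNA, to which the ERCC set of synthetic standards was added, and was made by a preparation that reduces ribosomal RNA and keeps the strand. The replicates carried different sample identifiers and the same donor identifier, so differences between them may be technical, and the p-values here, from 1 library against 1, rest on counting error and measure no spread between animals. Replicate 2 had 37281459 expected counts in annotated genes and replicate 1 had 38858481.

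Actins are the subunits of thin and cytoskeletal filaments, and vertebrates encode near-identical isoforms in separate genes. Actc1 and Acta1 encode the sarcomeric actins of heart and skeletal muscle, and Acta1 is expressed more strongly in the fetal and stressed rodent heart than in the healthy adult one. Acta2 and Actg2 encode the smooth muscle actins of vessels and of viscera, and Actb and Actg1 encode the cytoplasmic actins found in all cells.

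The coding sequences were alike but could be told apart by reads of the length used here. The first 60 coding bases of the longest coding transcript of each gene, from the GENCODE M21 transcripts of mm10, are printed to show how close the isoforms are; capitals mark bases that differ from Actc1 in a pairwise alignment, in which gaps are not drawn.
Actc1: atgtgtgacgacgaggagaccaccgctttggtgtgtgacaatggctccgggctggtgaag
Acta1: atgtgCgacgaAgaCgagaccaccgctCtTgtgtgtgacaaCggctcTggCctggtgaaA
Acta2: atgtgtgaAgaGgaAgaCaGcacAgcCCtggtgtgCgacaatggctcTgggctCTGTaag
Actg2: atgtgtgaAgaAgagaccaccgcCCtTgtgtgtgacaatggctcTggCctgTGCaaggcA
Actb: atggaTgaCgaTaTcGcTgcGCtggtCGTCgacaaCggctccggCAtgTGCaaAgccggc
Actg1: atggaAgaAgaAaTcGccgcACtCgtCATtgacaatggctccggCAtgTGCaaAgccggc
Within this stretch Acta1 differed from Actc1 at 9 bases, Actg2 at 11, Acta2 at 14, Actg1 at 17 and Actb at 19. Over the whole coding sequence, identity ranged from 81.9% for Actc1 with Actg1 and Acta2 with Actg1 to 88.7% for Actb with Actg1. Actc1 and Acta1 differed at 157 of 1134 aligned coding bases, an identity of 86.2%. The longest coding run shared by any pair was 77 bases, in Acta1 and Actb, and no run of the 3′ untranslated regions shared by a pair was longer than 11 bases.

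Reads of 100 bases could therefore not be placed in more than 1 of the 6 genes where they matched the reference exactly. None of the 100-base windows of Actc1, Acta1, Acta2 or Actg2 occurred in a transcript of any other annotated gene. In Actb, 20 of 3108 windows also occurred in Lrrc58 and in the pseudogene Gm15725. In Actg1, 946 of 3163 windows, 29.9%, also occurred in 1 or more of 6 processed pseudogenes. The most abundant of these was Gm8399 at 9.09 TPM in replicate 2 and 11.2 TPM in replicate 1, and Actg-ps1 had 0.45 and 0.66 TPM in the same order of libraries. TPM is the length-scaled abundance of a transcript, scaled to the same total in each library. The 6 pseudogenes together held 9.70 TPM in replicate 2 and 12.3 TPM in replicate 1, so the split between Actg1 and these copies is uncertain. The posterior SD of the count in the authors' deposited table was 0 for the 4 muscle actins in both libraries, 3.20 and 3.43 counts for Actb and 12.1 and 12.6 counts for Actg1 in replicates 2 and 1.

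Actc1, the cardiac sarcomeric actin, was by far the most abundant of the family. It had 4593 TPM in replicate 2 and 5257 TPM in replicate 1, a mean of 4925 ± 469 TPM (SD, n = 2). It ranked 4 among 22015 nuclear protein-coding genes in both libraries. The deposited interval ran from 4475 to 4515 TPM in replicate 2 and from 5124 to 5167 TPM in replicate 1. It lies around the deposited posterior mean, 4495 TPM in replicate 2 and 5145 TPM in replicate 1, and does not hold the TPM given above. The libraries lay further apart than either interval was wide. The gene lies at chr2:114047282-114053548 on the minus strand of mm10. A processed transcript gene of the opposite strand, A530058N18Rik, spans it and had 5.04 TPM in replicate 2 and 2.18 TPM in replicate 1. The strand setting used in counting was not given in the sources used here, so reads of this pair could not be separated with certainty. Its expected counts, 197 in replicate 2 and 86.0 in replicate 1, compare with 193450 and 222848 for Actc1.

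Acta1, the skeletal muscle sarcomeric actin at chr8:123891769-123894751 on the minus strand, stood at 239 TPM in replicate 2 and 170 TPM in replicate 1, a mean of 205 ± 48.2 TPM (SD, n = 2). It ranked 219 among nuclear protein-coding genes in replicate 2 and 345 in replicate 1. Acta1 TPM was 0.0520 of Actc1 TPM in replicate 2 and 0.0324 in replicate 1. The annotated gene Gm20388 on the other strand spans Acta1 and was listed at 0 TPM in both libraries.

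Acta2, the vascular smooth muscle actin at chr19:34241090-34255590 on the minus strand, had 32.3 TPM in replicate 2 and 36.0 TPM in replicate 1, a mean of 34.1 ± 2.63 TPM (SD, n = 2). In bulk tissue, fewer cells of a type and less RNA per cell cannot be told apart, and this holds for every level given here. Actg2, the visceral smooth muscle actin at chr6:83512905-83536265 on the minus strand, was near the limit of detection. It had 0.40 TPM from 14 counts in replicate 2 and 0.34 TPM from 13 counts in replicate 1.

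Actb, at chr5:142903115-142906754 on the minus strand, had 273 TPM in replicate 2 and 406 TPM in replicate 1, a mean of 340 ± 94.2 TPM (SD, n = 2). Actg1, at chr11:120345690-120348542 on the minus strand, had 92.5 TPM in replicate 2 and 119 TPM in replicate 1, a mean of 106 ± 19.0 TPM (SD, n = 2). Both cytoplasmic actins were thus lower in replicate 2 on the TPM scale, with Actb TPM 2.95 times Actg1 TPM in replicate 2 and 3.40 times in replicate 1. The small RNA genes inside Actg1, Mir6935 and Gm23419, were listed at 0 TPM in both libraries.

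By TPM the order was Actc1, Actb, Acta1, Actg1, Acta2 and Actg2 in both libraries, and the lowest library of each gene lay above the highest library of the next. The closest neighbours were Actb, whose lower library stood at 273 TPM, and Acta1, whose higher library stood at 239 TPM. The order across the 2 libraries was not tested.

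**Figure D1:**
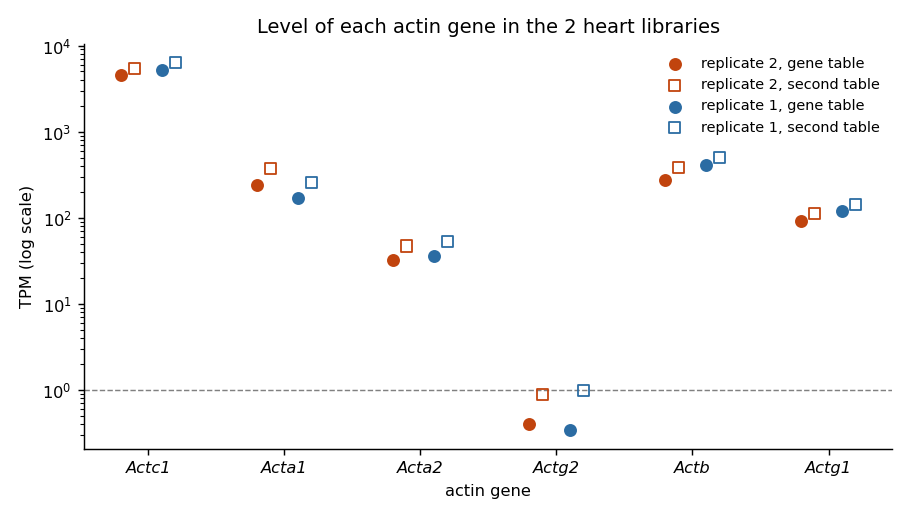
TPM on a log scale of each actin gene, with replicate 2 left of replicate 1; filled circles are the gene table, open squares the second transcript table summed per gene, and the dashed line is 1 TPM. Actc1 lies between 4593 and 6371 TPM, and Actg2 stays under 1 TPM in all 4 values.

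The share of Actc1 in the family was nearly the same in both libraries, while those of Acta1 and Actb differed. Actc1 made up 87.8% of the summed TPM of the 6 genes in replicate 2 and 87.8% in replicate 1. Acta1 made up 4.56% in replicate 2 and 2.85% in replicate 1. Actb made up 5.22% in replicate 2 and 6.78% in replicate 1. Actg1 was at 1.77% and 1.99%, Acta2 at 0.617% and 0.601%, and Actg2 at 0.00765% and 0.00568% in replicates 2 and 1. The 4 muscle actins together held 93.0% of the family's TPM in replicate 2 and 91.2% in replicate 1, and the 2 cytoplasmic ones 6.99% and 8.78%. All 6 genes held 1.46% of nuclear protein-coding TPM in replicate 2 and 1.45% in replicate 1, so this share moved less than those of Acta1 and Actb within the family. The summed TPM of the 6 genes was 5230 in replicate 2 and 5990 in replicate 1.

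In shares of the family's counts, Acta1 had 4.42% in replicate 2 (95% Clopper-Pearson interval 4.33 to 4.51) and 2.77% in replicate 1 (2.70 to 2.83). Actc1 had 86.8% in replicate 2 (86.7 to 86.9) and 87.4% in replicate 1 (87.3 to 87.5). Neither pair of intervals overlapped. These intervals cover counting error only, and reads without molecular identifiers are not independent molecules.

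**Figure D2:**
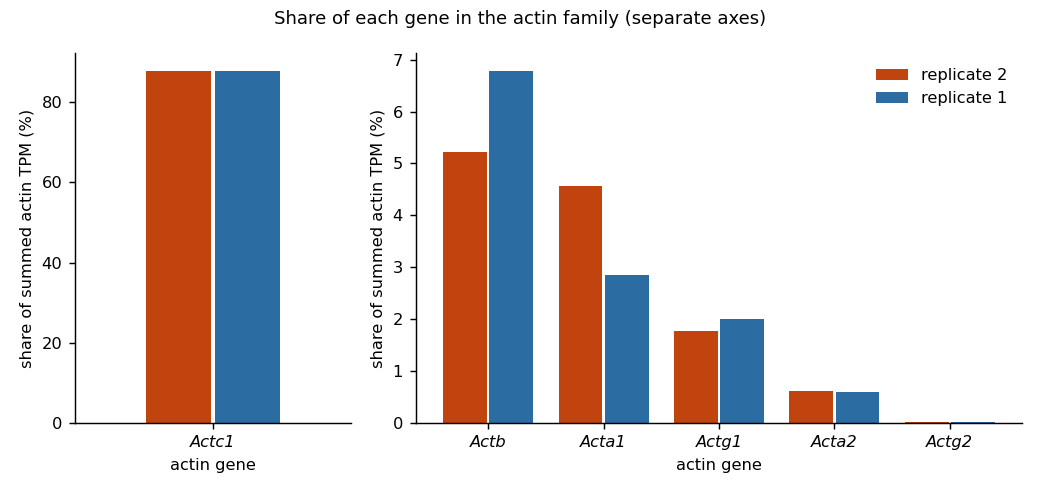
Share of each gene in the summed TPM of the 6 actin genes, in percent, with replicate 2 left of replicate 1; the left axis is for Actc1 and the right for the other genes. Acta1 is at 4.56% in replicate 2 and 2.85% in replicate 1, and Actb at 5.22% and 6.78%.

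The replicates were compared gene by gene on counts, as replicate 2 over replicate 1, with library sizes scaled by TMM, a trimmed mean of the gene ratios. The test was an exact conditional binomial one, with p-values adjusted by Benjamini-Hochberg over the 12189 genes that averaged at least 1 TPM. It compares 2 libraries and not conditions. Of the 5 actin genes tested, 1 was called higher in replicate 2, where 10.6% of all genes were, and 3 were called lower, where 15.8% of all genes were. In either direction 4 of 5 were called, against 26.3% of all genes tested. The 4 called had from 4921 counts (Actg1, replicate 2) to 222848 counts (Actc1, replicate 1). A gene with more counts is called at a smaller difference, and the shares over all genes, here and below, were not matched for counts. None of the 5 reached a 2-fold difference, against 1.67% of all genes.

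Acta1 was the actin that was higher in replicate 2, with 9849 expected counts there and 7055 in replicate 1. The log2 ratio was 0.62 (95% interval 0.57 to 0.66), or 1.53-fold, with a Benjamini-Hochberg adjusted p of 1.78e-166 by the exact binomial test. Of the 12189 genes, 217 had a higher ratio. A 1.5-fold threshold, chosen after the values were seen, was passed upward by Acta1 and by 2.17% of all genes. With library sizes set by total gene counts the log2 ratio of Acta1 was 0.54, which is under 1.5-fold, and with those set by the spike-ins it was 0.71.

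The cytoplasmic actins were lower in replicate 2. Actb had 13127 counts in replicate 2 and 16848 in replicate 1, a log2 ratio of -0.22 (95% interval -0.26 to -0.19) with an adjusted p of 1.36e-38 by the exact binomial test. Actg1 had 4921 counts in replicate 2 and 6492 in replicate 1, a log2 ratio of -0.26 (-0.32 to -0.21) with an adjusted p of 1.57e-20 by the same exact test. Both ratios stayed below 0 under all 4 scalings of the libraries, from -0.30 to -0.13 for Actb and from -0.34 to -0.17 for Actg1. For scale, the median absolute log2 ratio was 0.12 among the 555 nuclear protein-coding genes that averaged 100 TPM or more.

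The 2 other tested genes differed little. Against TMM, the spike-ins move the log2 ratio of every gene by about 0.09 and total counts by about -0.08, so a ratio near 0 can change sign by this offset alone. Actc1 had a log2 ratio of -0.07 (-0.08 to -0.06) with an adjusted p of 1.01e-48 by the exact binomial test, but the sign turned to 0.03 (adjusted p 1.29e-08) when the spike-ins set the library sizes. Acta2, with 1522 counts in replicate 2 and 1760 in replicate 1, had a log2 ratio of -0.07 (-0.17 to 0.03) with an adjusted p of 0.325 by the exact binomial test, and its sign also turned, to 0.02, under the spike-ins. With total counts as library sizes Acta2 passed the test, at -0.15 with an adjusted p of 0.0120. Actg2 was too low to be tested, and its log2 ratio of 0.21 had an interval from -0.95 to 1.45; in the second table the ratio was -0.02.

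**Figure D3:**
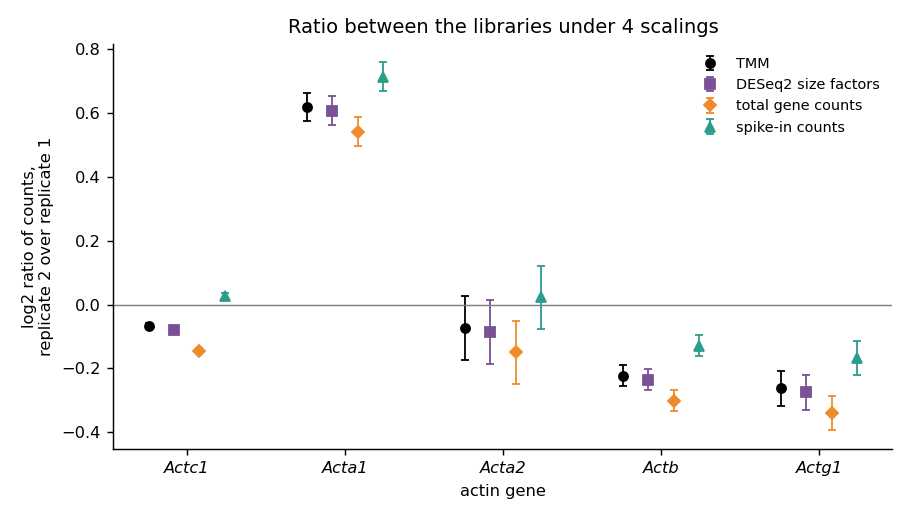
Log2 ratio of counts, replicate 2 over replicate 1, of the 5 tested actin genes under 4 ways of setting library sizes; bars are 95% intervals from counting error. Acta1 lies between 0.54 and 0.71 and Actb and Actg1 below 0 under all 4, while Actc1 and Acta2 lie above 0 under the spike-in scaling only.

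**Figure D4:**
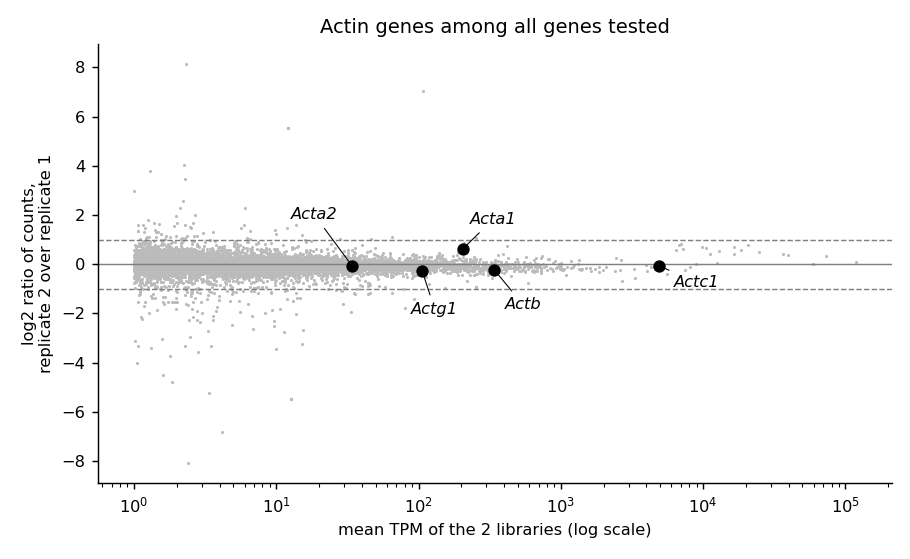
Log2 ratio of counts, replicate 2 over replicate 1, against the mean TPM on a log scale for the 12189 genes tested (grey) and the 5 tested actin genes (black); dashed lines mark 2-fold. All 5 actin genes lie inside the dashed lines, with Acta1 at 0.62 the farthest from 0 among them.

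The log2 ratio of replicate 2 over replicate 1 was lower in TPM than in counts for every tested actin gene, with the widest gap for Actb. The log2 difference of TPM was -0.57 for Actb, against -0.22 for its counts. It was 0.49 against 0.62 for Acta1 and -0.37 against -0.26 for Actg1. For Actc1 it was -0.19 against -0.07, and for Acta2 -0.16 against -0.07. The deposited effective length of Actb was 1568 bases in replicate 2 and 1344 bases in replicate 1. That of Actc1 was 1374 bases in both, although its ratio was also lower in TPM than in counts scaled by TMM. Scaling by TPM and by TMM thus sets the libraries at different offsets, which enter every TPM difference given here. The effective length of a gene is an average over its transcripts, so it moves with the split of reads among them.

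The transcript split of Actb differed between the libraries in the first transcript table, and less so in the second. Actb-201, the main coding transcript of 1920 bases, had 205 TPM in replicate 2 and 225 TPM in replicate 1, or 75.1% and 55.5% of the gene. Actb-202, a coding transcript of 536 bases, had 6.37 TPM in replicate 2 (deposited interval 0.00493 to 17.5) and 60.0 TPM in replicate 1 (45.3 to 70.4). The interval of the short transcript in replicate 2 did not reach that of replicate 1, but the low level in replicate 2 was seen in the first table only. In the second table Actb-202 had 53.5 TPM in replicate 2 and 88.5 TPM in replicate 1, and Actb-201 made up 52.1% and 45.5% of the gene's TPM. The counts of Actb-202 were 371 and 680 in the second table, against 85.3 and 809 in the first, in replicates 2 and 1. Actb-206, a processed transcript with no annotated coding sequence, had 46.4 TPM in replicate 2 and 75.5 TPM in replicate 1. Actb-207 had 8.47 TPM in replicate 2 and 37.5 TPM in replicate 1, and Actb-208 had 3.90 and 4.94 TPM. The retained-intron transcripts Actb-204 and Actb-205 together made up 1.06% of Actb in replicate 2 and 0.70% in replicate 1. Only 88 of the 437 windows of 100 bases in Actb-202 occur in no other transcript.

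In Actc1, Acta1 and Acta2 the same transcript led in both libraries in the first transcript table, while in Actg2, at few counts, the leading transcript differed. Actc1-201 held 99.98% of Actc1 TPM in replicate 2 and 99.97% in replicate 1. Acta1-201 held 99.9% in replicate 2 and 99.3% in replicate 1. Acta2-201 held 67.1% in replicate 2 and 70.9% in replicate 1, and the shorter coding transcript Acta2-202 the rest. Actg2 had no transcript of 1 TPM in either table; Actg2-202 had 0.38 and 0.07 TPM, Actg2-201 had 0 and 0.28 TPM, and Actg2-204 had 0.02 and 0 TPM in replicates 2 and 1.

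Actg1-202 held 88.4% of Actg1 in replicate 2 and 90.4% in replicate 1. Actg1-206, annotated as a target of nonsense-mediated decay, held 4.95% in replicate 2 and 5.82% in replicate 1. The retained-intron transcripts Actg1-207, Actg1-208 and Actg1-209 together made up 6.45% in replicate 2 and 3.22% in replicate 1. Retained-intron transcripts thus took a larger share of Actg1 than of Actb in both libraries.

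The second transcript table placed the same genes in the same order but gave higher TPM for each of them. Acta1 had 374 TPM in replicate 2 in the second table against 239 TPM in the gene table, a ratio of 1.57, and 258 against 170 TPM in replicate 1, a ratio of 1.51. The counts behind these levels were nearly the same, with 9849 in the second and 9849 in the first table for replicate 2, and 7314 and 7055 for replicate 1. Actb had 385 and 501 TPM in the second table in replicates 2 and 1, Actg1 had 112 and 142 TPM, and Acta2 had 47.1 and 52.8 TPM. Actc1 had 5386 TPM in replicate 2 and 6371 TPM in replicate 1. Actg2 counts were 27 and 31 in the second table, against 14 and 13 in the first, for replicates 2 and 1.

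The tables split the reads differently over short transcripts, and they also divided counts by different lengths. In the first, effective length fell short of transcript length by about the 100 bases of a read. In the second it fell short by 323 bases in replicate 2 and 309 in replicate 1, by the median over long transcripts. At equal counts a short transcript can thus have a higher TPM in the second. Acta1-202, a coding transcript of 616 bases, had 139 TPM in replicate 2 and 92.6 TPM in replicate 1 in the second table, against 0.32 and 1.22 TPM in the first. Actc1-202, of 303 bases, had 134 and 440 TPM in the second table in replicates 2 and 1, against 1.12 and 1.47 TPM in the first. Acta2-202 led Acta2 in the second table with a mean of 51.3% of TPM. By counts, Acta2-202 held 23.7% and 24.0% of its gene there, Acta1-202 13.4% and 13.1%, and Actc1-202 0.14% and 0.40%, in replicates 2 and 1. The second table also gave Actb-208 84.3 TPM in replicate 2 and 115 TPM in replicate 1.

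The split of Actg1 differed in the same way. Actg1-205, a coding transcript of 1021 bases, had 22.9 and 26.4 TPM in the second table in replicates 2 and 1, against 0.16 and 0.66 TPM in the first. Actg1-204 had 12.3 and 42.2 TPM in the second table, against 0 and 0 TPM in the first, and none of its 100-base windows is unique to it. The transcript levels of Actc1, Acta1, Acta2, Actb and Actg1 therefore depended on the table, while the order of the genes did not.

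**Figure D5:**
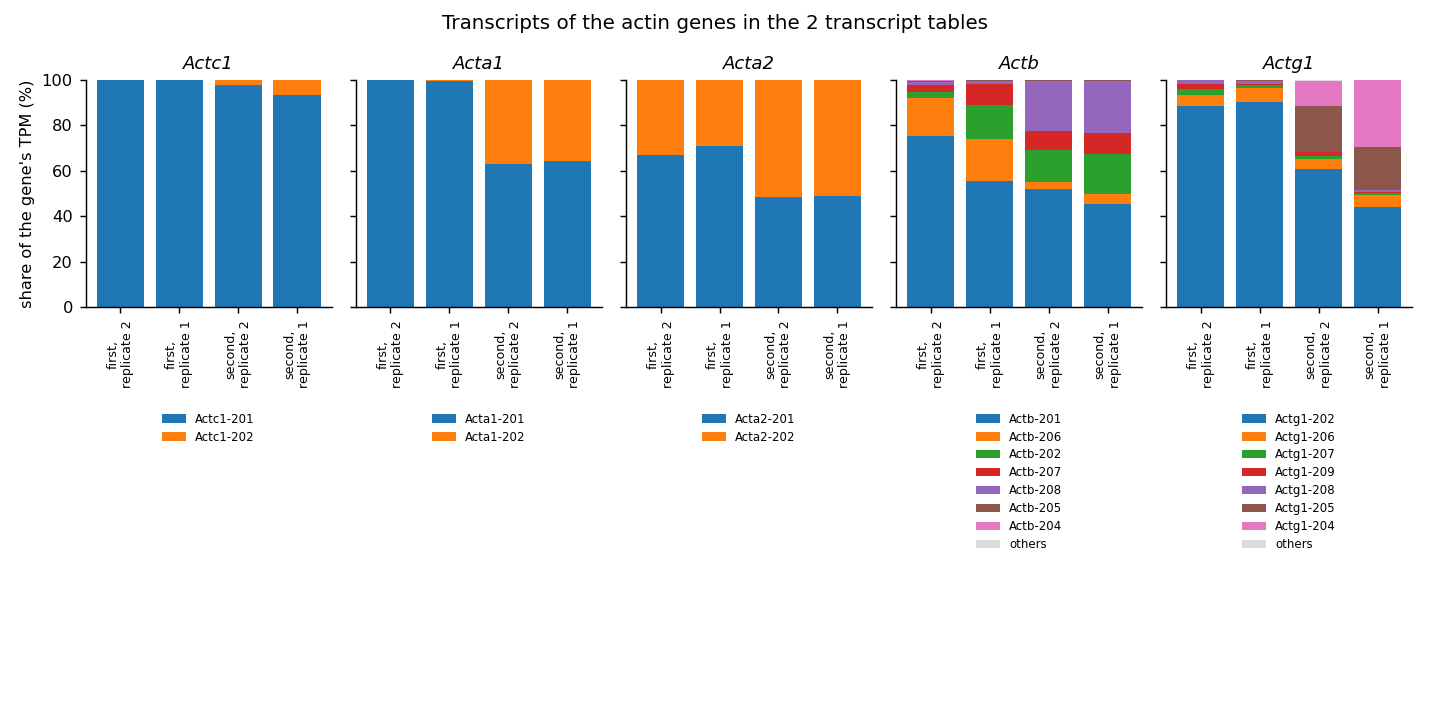
Share of each transcript in its gene's TPM, in percent, in the first and second transcript tables with replicate 2 left of replicate 1; transcripts under 1 TPM in both tables are pooled as others. Acta1-201 averages 63.5% of its gene in the second table, against 99.6% in the first.

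Genes whose levels lay nearest to each actin gene were found by the distance of log2(TPM + 1) over the 2 libraries, which describes 2 values per gene and no shared control. Actc1 lay nearest to Atp2a2, the calcium pump of the sarcoplasmic reticulum, at 4162 TPM in replicate 2 and 4950 TPM in replicate 1, and to Myl3, a ventricular myosin light chain, at 4081 and 5113 TPM. Acta1 lay nearest to Pdk4, a kinase that inhibits pyruvate dehydrogenase, at 253 TPM in replicate 2 and 166 TPM in replicate 1, and to Ankrd23, a muscle ankyrin repeat protein, at 217 and 165 TPM. Actb lay nearest to the beta-globin Hbb-bt, at 254 and 404 TPM, and the ribosomal protein gene Rplp2, at 301.3 and 402 TPM. Actg1 lay nearest to the phosphatase subunit Ppp1ca and to Fblim1, Acta2 to D5Ertd579e and Gatad1, and Actg2 to Trim36 and Cdkn2b.

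Acta1 belongs to a list of 8 genes of the fetal and stress programme of heart muscle, of which 7 could be tested. In replicate 2, 6 of them were called higher and 1 lower, against 10.6% higher and 15.8% lower among all genes tested, the background for the list counts that follow as well. The median log2 ratio of the list was 0.42 against -0.02 over all genes tested. Ankrd1, a stress-responsive ankyrin repeat protein, had 436 TPM in replicate 2 and 346 TPM in replicate 1, a log2 ratio of counts of 0.42. Myh7, the slow myosin heavy chain, had 738 and 745 TPM and a log2 ratio of counts of 0.35, so its TPM was not higher in replicate 2 although its counts were called so. Nppb, a natriuretic peptide, had 156 and 125 TPM (0.45), and Xirp2, an actin-binding repeat protein, 155 and 126 TPM (0.43). Nppa, the atrial natriuretic peptide, was the member called lower, with 415 TPM in replicate 2 and 769 TPM in replicate 1 and a log2 ratio of -0.76. Under total-count library sizes Myh7b lost its call, which left 5 members higher and 1 lower. Tnni1, the member too low to be tested, had 0.35 TPM from 7 counts in replicate 2 and 0.60 TPM from 18 counts in replicate 1. The list was known from earlier results of these libraries to hold members that differ, and it includes Acta1 itself.

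Markers of the atrium moved with the libraries as well. Of 8 atrial cardiomyocyte genes, 7 were called lower in replicate 2, with a median log2 ratio of -0.45, and Tbx5 was called higher at 0.20, a call lost with DESeq2 size factors and with total counts. Of all genes tested, 15.8% were called lower. The summed level of the 8 atrial genes was 850 TPM in replicate 2 and 1425 TPM in replicate 1. Nppa, which is also in the fetal and stress list, gave 415 and 769 TPM of these sums. Bmp10, a secreted factor of the right atrium, had 1.55 TPM in replicate 2 and 18.5 TPM in replicate 1, a log2 ratio of -3.44. Myl7, the atrial regulatory light chain, had 164 and 243 TPM. The part of atrial tissue in the difference of Acta1 was not tested.

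Most markers of fast skeletal muscle were at or near 0 beside Acta1. Of 10 genes, 1 reached 1 TPM in both libraries, Mybpc2 at 6.44 TPM in replicate 2 and 4.36 TPM in replicate 1. Mybpc2, a myosin-binding protein, was called higher in replicate 2 at a log2 ratio of 0.69, and under all 4 scalings. The other gene of the list that could be tested, Mylpf, was not called, at -0.18 from 7 counts in replicate 2 and 9 in replicate 1. Of those averaging under 1 TPM, Tnni2, Tnnc2, Actn3 and Atp2a1 had lower TPM in replicate 2 and Tnnt3 higher. The fast myosin heavy chains Myh2 and Myh4 were listed at 0 TPM in both libraries, and Myh1 at 0 and 0.01 TPM. The summed level of the 10 genes was 8.20 TPM in replicate 2 and 7.77 TPM in replicate 1. Of 10 general and ventricular cardiomyocyte genes, the lowest value was 280.0 TPM, of Ryr2 in replicate 2. Myl2 and Pln were called higher, at 0.02 and 0.16, and the other 8 lower, with a median log2 ratio of -0.16 for the list. Myl2 was called lower under total-count library sizes, and Tnnt2 higher under the spike-ins.

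All 12 smooth muscle contractile genes reached 1 TPM in both libraries beside Acta2, with a summed level of 211 TPM in replicate 2 and 226 TPM in replicate 1. Smtn (smoothelin) had 52.9 and 62.2 TPM, Synpo2 had 35.4 and 29.6 TPM, Tagln (transgelin) had 25.8 and 28.9 TPM, and Myl9, the smooth muscle regulatory light chain, had 19.8 and 28.6 TPM in replicates 2 and 1. Synpo2 and Myh11, the smooth muscle myosin heavy chain, were called higher in replicate 2 at 0.22 and 0.23, and Myl9 was called lower at -0.44. Those are 2 higher and 1 lower of 12, against 10.6% and 15.8% of all genes. Total counts gave 2 higher and 2 lower, and the spike-ins 4 higher and 1 lower. The median log2 ratio of the list was 0.02 and turned to -0.05 under total-count library sizes. Acta2 thus stood above Tagln and below Smtn in TPM, in both libraries. Of 8 pericyte genes, all detected, 1 was called lower, Abcc9 at -0.09, and none higher. Total counts gave 4 lower and 0 higher, and the spike-ins 0 lower and 4 higher, with Abcc9 at 0.01. Of 7 myofibroblast genes 4 reached 1 TPM in both libraries, led by Postn at 5.28 TPM in replicate 2 and 5.45 TPM in replicate 1. Of the 5 tested, 1 was called higher, Fap at 0.88 from 114 counts in replicate 2 and 67 in replicate 1, and 0 lower. Total counts gave 1 higher and 1 lower. The median log2 ratio of that list was 0.22, with Meox1 and Thbs4 at 0.23 and 0.22 and Postn and Comp at -0.04 and -0.38, none of these called. Of 8 fibroblast genes, 3 were called higher and 4 lower, with a median log2 ratio of -0.05. Dcn, Lum and Pdgfra were higher at 0.08, 0.21 and 0.25. Col1a1, Col3a1, Col1a2 and Gsn were lower at -0.56, -0.56, -0.47 and -0.16. Total counts gave 1 higher and 4 lower, and the spike-ins 3 higher and 4 lower. Beside Actg2, 6 visceral and enteric genes were measured. Hand2, which heart muscle also expresses, had 19.9 TPM in replicate 2 and 33.5 TPM in replicate 1, Ano1 had 4.04 and 4.14 TPM, and Kit had 0.95 and 1.14 TPM. Mab21l2 had 0.01 and 0.07 TPM, and Barx1 and Nkx3-2 were listed at 0 TPM in both libraries.

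The proteins that bind, fold and cap actin were measured beside the actins. Of 13 monomer-binding and severing proteins, 8 were called lower in replicate 2 and 1, Cfl2, higher at 0.08, with a median log2 ratio of -0.12. Among all genes tested 15.8% were called lower and 10.6% higher, and Cfl2 lost its call with total counts. With spike-in library sizes Gsn, Tmsb4x, Cfl1 and Dstn were called lower and Cfl2, Cap1, Cap2 and Pfn2 higher. Gsn (gelsolin, which severs filaments) had 235 TPM in replicate 2 and 299 TPM in replicate 1, and Tmsb4x (thymosin beta 4, which sequesters monomers) 163 and 212 TPM. Cfl2, the muscle cofilin, had 160 and 161 TPM, and Pfn1 (profilin) 103 and 122 TPM.

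Actin reaches its fold in the TRiC chaperonin, whose subunits stood low in replicate 2. Of 16 genes of actin folding and modification, 8 were called lower, all of them subunits of this chaperonin, and none higher, against 15.8% lower and 10.6% higher among all genes tested. Under the other scalings 6 to 10 of the 16 were called lower and at most 1 higher. Their median log2 ratio was -0.20, and it was -0.11 under the spike-ins. Tcp1 had 72.0 TPM in replicate 2 and 83.1 TPM in replicate 1, Cct3 had 56.9 and 79.5 TPM, and Cct8 had 56.8 and 74.5 TPM. The prefoldin subunit Pfdn5 had 125 and 137 TPM, with a log2 ratio of counts of 0.02 and an adjusted p of 0.815 by the exact binomial test.

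Of 13 genes that set filament ends and length, 3 were called higher and 3 lower, against 10.6% and 15.8% of all genes, with a median log2 ratio of 0.02. The spike-ins gave 7 higher and 0 lower, and total counts 2 higher and 5 lower. Lmod2, a nucleator of cardiac thin filaments, had 314 TPM in replicate 2 and 351 TPM in replicate 1. Nrap, a nebulin-related anchor of new myofibrils, had 187 and 161 TPM and was called higher at 0.35. Neb (nebulin) was called higher as well, at 0.81, and so was Tmod4 at 0.23, a call lost with DESeq2 size factors and with total counts. Capzb had 121 and 153 TPM and Nebl 117 and 138 TPM, and both were called lower, at -0.12 and -0.10, as was Tmod1 at -0.07. With spike-in library sizes the sign of Tmod1 turned to 0.03.

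Serum response factor binds the CArG box, a DNA element of many muscle genes. The promoter table of RefSeq on GRCm38.p6 had entries for 4 of the 6 genes, Actc1, Acta1, Acta2 and Actg1. The 250 bases before the start were searched for CC, 6 bases of A or T, and GG with no mismatch, a motif that reads alike on both strands. Of 32851 entries in the table, 482 held a CArG box there, or 1.47%. The box was found in 3 of the 4 actin entries, and the 60 bases around each are printed on the gene's strand with the box in capitals.
Actc1: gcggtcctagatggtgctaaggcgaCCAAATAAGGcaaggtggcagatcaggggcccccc
Acta1: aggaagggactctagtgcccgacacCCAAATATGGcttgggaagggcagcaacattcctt
Actg1: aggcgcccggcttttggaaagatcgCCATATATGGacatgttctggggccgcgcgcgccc
These lie at chr2:114052888-114052947, chr8:123894814-123894873 and chr11:120348551-120348610, all on the minus strand, and none overlaps an annotated exon of the gene. The box of Actc1 lay 47 to 38 bases before the start, that of Acta1 73 to 64 and that of Actg1 90 to 81. No exact match to the motif was in the window of Acta2, and boxes that deviate by a base or lie farther away were not searched for. Actb and Actg2 had no entry and were not searched. A match is a run of letters and was not shown here to be bound.

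The genes of this factor and its cofactors were all at 1 TPM or more. Srf had 34.2 TPM in replicate 2 and 35.6 TPM in replicate 1, with a log2 ratio of counts of -0.06 (adjusted p 0.352 by the exact binomial test). Its sign turned to 0.04 under the spike-ins. The other leading genes were Fhl2 at 611 and 744 TPM, Abra at 36.4 and 36.5 TPM and Elk4 at 29.8 and 31.2 TPM in replicates 2 and 1. Of 9 genes, Abra, Elk3 and Mrtfb were called higher, at 0.12, 0.61 and 0.18, and Fhl2 and Myocd lower, at -0.16 and -0.14, with a median log2 ratio of 0.04, which was -0.04 under total-count library sizes. Total counts gave 1 higher and 4 lower, with Abra and Mrtfb no longer called, and the spike-ins 4 higher and 1 lower, with Myocd no longer called. Among all genes tested 10.6% were called higher and 15.8% lower. Among the 4 actin genes searched, those with an exact match, Actc1, Acta1 and Actg1, had log2 ratios of -0.07, 0.62 and -0.26 in the same libraries. Acta2, the 1 without an exact match, had -0.07.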

How the data were processed

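In all, 2 libraries of total RNA from heart tissue of 1 group were analysed. The authors deposited a gene table and a first transcript table with expected counts, TPM, interval bounds on TPM (a signal in TPM whose level is not stated) and each transcript's percent of its gene, made from transcriptome alignments per the file headers and the deposited file list. Another deposited transcript table, called the second, gave estimated counts with TPM. Per that file list the genome was mm10, annotated by GENCODE M21. Which quantification tools were used is not given in the sources used here. Reads of CAST/EiJ alleles were quantified against the same annotation, and no allele-specific value was analysed here.

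Expected counts were rounded to whole numbers. Library sizes were scaled by TMM in edgeR 4.0.16 (R 4.3.3), with DESeq2 1.42.0 size factors, total counts and summed spike-ins as alternatives. Log2 ratios are replicate 2 over replicate 1, with a prior count of 2. The exact conditional binomial test was two-sided by doubling the smaller tail, with Benjamini-Hochberg adjustment at 0.05 over the 12189 genes averaging 1 TPM or more, in scipy 1.17.1. It was run on counts simulated with counting error alone, the error that the test assumes. That checks the code and not how the test behaves where libraries differ by more than counting error. Spike-ins and 26248 entries named only by number, which held 1.00 expected count in replicate 2 and 1.94 in replicate 1, were left out. Shares have 95% Clopper-Pearson intervals. Windows and coding sequences were read from the GENCODE transcripts with Biopython 1.88, and promoters from the RefSeq table.

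The members and gene lists were chosen with earlier results of these data known. Named genes were the actins, their transcripts of at least 1 TPM in either table, up to 4 members per list by highest mean TPM, list members past 2-fold, the nearest 2 genes of each actin, overlapping genes and named pseudogenes. Other list genes, such as Nppb, Xirp2, Tbx5, Myh11 and the fast myosins, and the alternatives of 1.5-fold and pseudocount 0.1 were chosen after their values were seen. Mkl1 and Mkl2 of the cofactor list are listed as Mrtfa and Mrtfb.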

Additional observations from a re-analysis of the deposited data

How the results depend on the processing

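Counting error limits the small differences least for Actc1 and most for Actg2, and no spread between animals could be estimated from 2 libraries of 1 group. No paired analysis was possible because there is 1 group. Leaving out a library leaves no ratio, so ratios have no such value. With spike-in library sizes the log2 ratio of Actc1 turned to 0.0275 and that of Acta2 to 0.0219, while with total counts Acta2 passed the test at -0.15; these scalings move every ratio by about 0.09 and -0.08. The ratios of Acta1, Actb and Actg1 kept their direction and their side of the threshold under DESeq2 size factors, total counts, spike-ins, no filter on low values, posterior mean counts and the second table. The ratio of Actg2, under the filter and not tested, was between 0.15 and 0.29 under the other scalings and -0.02 in the second table. Without the filter 2010 genes were at least 2-fold apart, against 203 with it. A 1.5-fold threshold, added after seeing the data, was passed by 1 actin gene and the 2-fold one by 0.

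In the second table mean levels were 5878 TPM for Actc1, 316 for Acta1, 49.9 for Acta2, 0.938 for Actg2, 443 for Actb and 127 for Actg1, and the posterior mean of Actg2 was 0.685 TPM. The mean family share of Actc1 was 87.1% by counts, 86.2% in the second table and 87.7% by posterior means. That of Acta2 was 0.687% by counts and 0.734% in the second table, that of Actg2 0.0138% in the second table and 0.0126% by posterior means, and that of Actg1 2.38% by counts. In the second table Actc1-201 held 95.3%, Acta1-201 63.5%, Acta2-201 48.7%, Actb-201 48.8% and Actg1-202 52.4% of the TPM of their genes.

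Leaving out 1 library put the level of Actc1 between 4593 and 5257 TPM, Acta1 170 to 239, Acta2 32.3 to 36.0, Actg2 0.34 to 0.40, Actb 273 to 406 and Actg1 92.5 to 119. Of 34 list medians with a higher TPM minimum or the second table, 30 moved by less than 0.12; the other 4 rest on 1 gene each. The 12 nearest genes were the same with a pseudocount of 0.1.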

Other observations

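Actin-related proteins and the nucleators of new filaments were measured beside the actins. Of 19 actin-related genes, 10 reached 1 TPM in both libraries and 8 were listed at 0 TPM in both. The leading one was Actr10, a dynactin subunit, at 48.1 TPM in replicate 2 and 56.7 TPM in replicate 1. Actr3, of the Arp2/3 complex that starts branched filaments, had 35.6 TPM in replicate 2 and 43.3 TPM in replicate 1, and Actr1b and Actr1a, of dynactin, had 32.1 and 40.7 TPM and 30.3 and 34.9 TPM. Of the 10 tested, 2 were called lower in replicate 2, Actr3 and Actr1b, both at -0.14, and none higher, against 15.8% and 10.6% of all genes tested. With spike-in library sizes neither was called, and Actr2 and Actr3b were called higher, and with total counts 5 were called lower.

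Of 20 nucleators and formins, 19 reached 1 TPM in both libraries. Fhod3, a formin of the heart sarcomere, was the most abundant at 115 TPM in replicate 2 and 139 TPM in replicate 1. The Arp2/3 subunits Arpc2 and Arpc5l followed at 54.5 and 61.5 TPM and 43.8 and 46.3 TPM. In replicate 2, Fhod3, Actr3, Wasf2, Arpc4 and Cobl were called lower and Daam1 higher, with a median log2 ratio of -0.09 over the 19, against 15.8% lower and 10.6% higher among all genes tested. With spike-in library sizes Fhod3 alone was called lower and 6 were called higher, with a median of 0.01, and with total counts 10 were called lower and none higher. These scalings move all genes alike, by about 0.09 and -0.08 on the log2 scale against TMM.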
